A study of Homo sapiens with 30 samples.

Results

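VCaP-only regions are stretches of open chromatin that were listed in every VCaP library and in none of the LNCaP libraries. VCaP and LNCaP are human lines established from prostate cancers, and both grow in response to androgen. VCaP is known for a fusion that places the ETS transcription factor ERG under the androgen-driven TMPRSS2 promoter. Open chromatin was mapped by Omni-ATAC-seq, in which the Tn5 transposase cuts accessible DNA and tags it for sequencing, and each of the 30 libraries came as 1 list of peaks.

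The VCaP libraries formed 5 groups of 3: vehicle and 0.01, 0.03, 0.06 and 10 nM R1881, a synthetic androgen. The LNCaP libraries formed 5 groups of 3 with vehicle and 0.03, 0.06, 0.1 and 10 nM R1881. Before 24 h with R1881 or vehicle, all cells spent 48 h on 8% serum stripped of steroids with charcoal. Replicates are numbered 1, 2 and 4 in VCaP. Each line is represented by its own cultures only, so the line and everything else that differs between the 2 sets of cultures cannot be told apart. No label says whether replicates were separate cultures, so p-values measure the spread between these libraries, which may be technical.

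The regions were chosen by the peak lists themselves. The starting set was the 79912 unique peak spans on chromosomes 1 to 22 and X among the 100000 strongest entries of VCaP vehicle replicate 4, ordered by −log10 p. A span was kept if it overlapped one of the 100000 strongest entries in each of the other 14 VCaP lists and no entry at all in any of the 15 LNCaP lists. This left 725 regions. A total of 30093 spans met the VCaP condition, so 29368 of those also overlapped a peak in at least 1 LNCaP list, and 25054 were listed in all 30 libraries. The 29368 spans are called regions also in LNCaP below. The difference between the lines is therefore what selected the 725 regions, and it is described here without a test.

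Just outside the rule, a further 363 spans were listed in 14 of the 15 VCaP lists and in no LNCaP list, and 255 were listed in all 15 VCaP lists and in 1 LNCaP list. The value of a region in a library is its percentile, from 0 to 100, by −log10 p among the 100000 strongest entries of that library. The mean percentile over the 15 VCaP libraries had a median of 66.4 in the 725 regions, 47.3 in the 363 spans and 68.9 in the 255 spans. "VCaP only" means listed in VCaP only, because a peak list ends at its caller's threshold and a region missing from it may still hold some signal. VCaP lists held 105034 to 170787 entries, and LNCaP lists held 135254 to 223998.

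Read counts are not part of a peak list, so depth is unknown. A background pileup solved from fold enrichment and p ran from 1.78 to 2.74 in 13 VCaP libraries and was 1.14 and 1.09 in VCaP vehicle replicates 1 and 2. It ran from 3.06 to 5.26 in LNCaP. As a check of the cell type, peaks stood within 1 kb of the start of 16 to 17 of 18 luminal prostate factor genes in VCaP and of 17 to 18 in LNCaP. All 14 housekeeping genes had one in every library of both lines. Starts of immune marker genes carried a peak for 4 to 6 of 9 genes in VCaP and 3 to 5 in LNCaP, and starts of stromal markers for 2 to 3 of 4 in VCaP and 3 to 4 in LNCaP. Neuroendocrine marker starts carried a peak for 8 to 9 of 9 genes in VCaP and 6 to 8 in LNCaP. For basal markers it was 3 to 5 of 8 in both lines. For endothelial markers it was 3 to 5 of 8 in VCaP and 2 to 5 in LNCaP. The check therefore does not set luminal identity apart from neuroendocrine identity. Peak presence at a start does not measure expression, and the share of other cells was not tested.

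A promoter is the stretch of DNA around a gene's start where transcription is launched, and it is often open in many cell types. Enhancers lie farther away, are read by sequence-specific factors, and differ more between cell types. In prostate cells FOXA1 opens chromatin through forkhead elements, steroid hormone receptors bind repeats of AGAACA-like elements, and ETS factors such as ERG bind elements with a GGAA core.

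Sequence could be read at gene starts, from RefSeq promoters on GRCh38.p14 (250 bases before to 50 bases after each start). VCaP-only regions overlapped 147 distinct promoter sequences of 133 genes. The bases before the start are shown for 9 of them: DCDC2, PKP1 and GPX3 for strong start regions, MST1R for 2 different ETS elements, RTL8B and INPP1 for start regions that fell at 10 nM, and CDX2, NR3C1 and ZNF385B, which are taken up below. Capitals mark matches, on either strand, to the forkhead element GTAAACA, the steroid receptor element AGAACA and the ETS elements AGGAAG and CCGGAAG. These 4 words do not contain one another. DCDC2 and RTL8B held no match in this window. The stretches lie at chr6:24358060-24358309 (DCDC2, minus strand), chr1:201283256-201283505 (PKP1, plus), chr5:151020341-151020590 (GPX3, plus), chr3:49903874-49904123 (MST1R, minus), chrX:135022543-135022792 (RTL8B, minus), chr2:190343339-190343588 (INPP1, plus), chr13:27969316-27969565 (CDX2, minus), chr5:143405356-143405605 (NR3C1, minus) and chr2:179745667-179745916 (ZNF385B, minus), each read 5′ to 3′ towards the gene.
DCDC2: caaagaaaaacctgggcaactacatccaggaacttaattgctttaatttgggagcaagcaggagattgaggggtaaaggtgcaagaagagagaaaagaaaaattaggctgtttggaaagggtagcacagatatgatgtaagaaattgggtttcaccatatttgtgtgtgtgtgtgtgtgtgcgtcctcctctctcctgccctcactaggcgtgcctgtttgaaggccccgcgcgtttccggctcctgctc
PKP1: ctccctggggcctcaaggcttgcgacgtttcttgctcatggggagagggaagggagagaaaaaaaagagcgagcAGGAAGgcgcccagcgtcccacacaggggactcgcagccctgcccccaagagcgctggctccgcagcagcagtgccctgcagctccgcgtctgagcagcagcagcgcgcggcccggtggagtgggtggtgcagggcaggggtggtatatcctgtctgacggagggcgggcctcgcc
GPX3: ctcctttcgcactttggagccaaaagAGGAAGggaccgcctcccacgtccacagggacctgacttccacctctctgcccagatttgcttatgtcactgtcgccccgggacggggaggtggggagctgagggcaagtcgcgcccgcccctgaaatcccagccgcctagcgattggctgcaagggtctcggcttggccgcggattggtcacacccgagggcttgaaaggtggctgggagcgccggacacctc
MST1R: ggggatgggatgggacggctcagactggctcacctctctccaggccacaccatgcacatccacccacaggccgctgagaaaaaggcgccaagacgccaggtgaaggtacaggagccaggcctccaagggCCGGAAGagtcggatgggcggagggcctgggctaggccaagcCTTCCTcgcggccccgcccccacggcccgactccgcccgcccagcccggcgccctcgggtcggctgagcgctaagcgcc
RTL8B: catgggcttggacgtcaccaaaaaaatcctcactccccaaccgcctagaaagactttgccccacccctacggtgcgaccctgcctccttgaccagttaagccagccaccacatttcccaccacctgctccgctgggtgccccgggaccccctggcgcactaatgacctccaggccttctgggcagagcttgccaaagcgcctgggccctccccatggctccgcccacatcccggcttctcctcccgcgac
INPP1: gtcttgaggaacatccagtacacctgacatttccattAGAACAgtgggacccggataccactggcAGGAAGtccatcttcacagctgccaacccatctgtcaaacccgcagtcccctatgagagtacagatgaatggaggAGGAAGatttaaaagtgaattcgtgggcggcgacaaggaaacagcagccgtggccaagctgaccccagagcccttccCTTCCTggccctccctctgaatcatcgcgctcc
CDX2: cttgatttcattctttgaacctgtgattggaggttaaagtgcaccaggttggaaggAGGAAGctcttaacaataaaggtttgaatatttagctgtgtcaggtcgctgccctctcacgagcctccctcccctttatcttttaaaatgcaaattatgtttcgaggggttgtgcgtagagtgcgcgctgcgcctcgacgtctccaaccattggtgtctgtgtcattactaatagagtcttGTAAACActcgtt
NR3C1: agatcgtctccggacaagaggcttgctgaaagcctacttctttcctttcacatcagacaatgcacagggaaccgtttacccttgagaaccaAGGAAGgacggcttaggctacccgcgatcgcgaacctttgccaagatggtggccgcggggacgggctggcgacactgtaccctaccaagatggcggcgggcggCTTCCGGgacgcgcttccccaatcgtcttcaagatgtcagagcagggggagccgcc
ZNF385B: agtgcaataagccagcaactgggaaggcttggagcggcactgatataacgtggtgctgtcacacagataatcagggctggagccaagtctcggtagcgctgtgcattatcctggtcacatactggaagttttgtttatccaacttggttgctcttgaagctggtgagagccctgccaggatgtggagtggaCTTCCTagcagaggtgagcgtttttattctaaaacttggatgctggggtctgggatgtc
The VCaP-only region covered 192 of the 250 bases at INPP1 and 151 of them at CDX2, and all 250 at the other 7. At INPP1 the region began at 190343397, after the AGAACA match, so that match lay outside it. The ETS matches at INPP1 lay inside it. A match to such a short word is a description of the letters and not a binding site.

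Promoters under VCaP-only regions were less rich in CpG than those under regions also in LNCaP. The GC share over 300 bases had a median of 64.0% in the 147 promoters, 66.7% in the 15575 promoters under regions also in LNCaP and 58.7% in all 34796. The observed over expected CpG ratio had a median of 0.704, 0.847 and 0.578 in the same order. The ETS element CCGGAAG, which is common in promoters open in many tissues, was present in 5.44% of the 147 promoters, 18.5% of those under regions also in LNCaP and 10.2% of all. The ETS element AGGAAG was present in 38.1%, 30.8% and 33.7%. AGAACA was present in 10.9%, 7.56% and 14.8%, and GTAAACA in 2.72%, 2.32% and 3.42%. The GATA element AGATAA stood at 8.84%, 4.23% and 10.4%. The GRHL word AACCGGTT was found in 0 of the 147. These are shares, set side by side without a test.

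VCaP-only regions were narrower, weaker and farther from genes than the regions also in LNCaP. Their median width was 708 bp, against 925 bp. Their mean percentile had a median of 66.4, against 80.4, and the fold enrichment of the summit over local background, the authors' value for each peak, averaged over the 15 libraries, had a median of 6.43, against 7.88. The SD of a region's percentile over the 15 libraries had a median of 11.2, against 6.79. The rule used these lists, so all of these values are given as a description.

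A gene start lay within 1 kb of 137 of 668 VCaP-only regions (20.5%), against 10881 of 27716 regions also in LNCaP (39.3%), counting the chromosomes whose starts were used. The median distance to a start was 21.1 kb, against 8.70 kb. At the far end, 17.2% of the VCaP-only regions and 9.35% of the regions also in LNCaP lay over 100 kb from any start. For gene bodies, 50.9% of the 725 regions and 69.2% of the others lay inside a protein-coding gene. For 135 of the 725 (18.6%), no protein-coding gene lay within 100 kb, against 8.19%. The 590 others were nearest to 559 genes, of which 24 had more than 1 VCaP-only region. A nearest gene is a neighbour and is not shown to be controlled from the region.

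**Figure D1:**
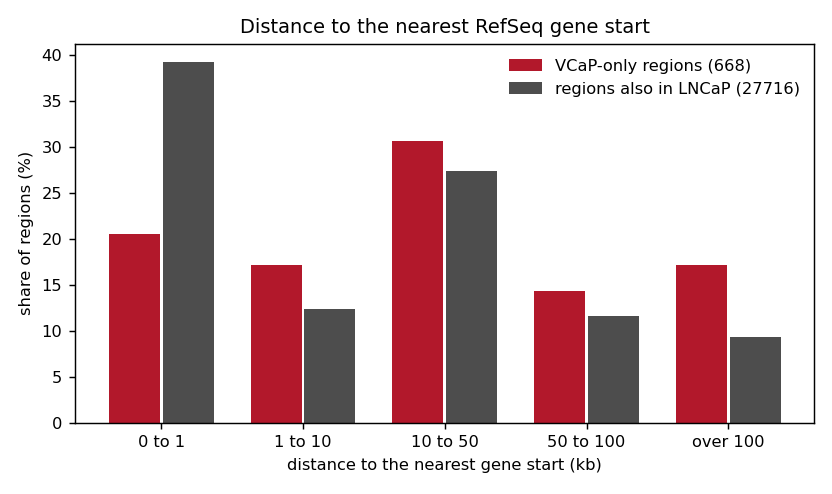
Share of regions (%) by distance to the nearest RefSeq gene start in kb, for 668 VCaP-only regions (left bars) and 27716 regions also in LNCaP (right bars). VCaP-only regions hold the smaller share within 1 kb (20.5% against 39.3%) and the larger share beyond 100 kb (17.2% against 9.35%).

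Most VCaP-only regions lay within a few kb of a LNCaP peak without touching it. No such distance was measured for other positions, so whether this is closer than elsewhere in the genome is unknown. The nearest LNCaP entry in any of the 15 lists lay a median of 2.05 kb away (quartiles 0.805 and 4.72 kb). It was within 500 bp for 110 regions, beyond 10 kb for 86 and beyond 50 kb for 11. In peak lists absent DNA and closed chromatin cannot be told apart, and copy number was not tested.

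Mean percentiles over the 15 libraries ran from 26.9 to 98.5, with 39 regions above 90 and 86 below 50. The scale ends at 100, so a mean close to it leaves room for a small SD only. The highest, on chromosome 21 at 23452587 to 23453064 with no protein-coding gene within 100 kb, had percentiles from 94.8 to 99.4 (mean 98.5 ± 1.16, SD, n = 15) and a mean fold enrichment of 17.9. Next came a region in TMEM191B on chromosome 22 (98.0 ± 0.783, SD, n = 15), a gene with near-identical copies nearby, so its position is uncertain. Among the 12 strongest, 1 per nearest gene, were 3 without a gene, including 2 on chromosome 8 at 136177513 (97.9 ± 1.26) and 136789497 (97.3 ± 1.68).

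CYP7B1, which codes for an oxysterol and steroid hydroxylase, had a region inside the gene at 97.8 ± 0.803. DCDC2, a doublecortin-family microtubule protein, had one over its start at 97.2 ± 1.10. NOTCH3, a receptor of the Notch pathway, had one inside the gene at 96.8 ± 1.46. A region 43.9 kb from the desmocollin gene DSC1 stood at 96.0 ± 1.78, and one over the start of the plakophilin gene PKP1 at 95.6 ± 1.497. Both genes code for proteins of the desmosome, the junction that fastens epithelial cells to each other. The share of desmosome genes among all regions was not worked out. The rest of the 12 were at GPR148 (95.5 ± 1.22), IRAK1BP1 (95.4 ± 1.91) and MAGEH1 (95.0 ± 2.85). The nearest LNCaP peak lay 0.222 kb from the PKP1 region and 0.025 kb from the GPR148 region. Their place among the VCaP-only regions thus depends on where peak edges were set. For the others of the 12 it lay 0.87 kb or more away. Each SD is over the 15 VCaP libraries, and none of these 12 reached an adjusted p under 0.05 in any comparison of doses (limma).

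The regions were spread unevenly over the chromosomes. Of all regions listed in the 15 VCaP lists, 2.41% were VCaP only. The share was 5.45% on chromosome X (39 of 716), 4.59% on chromosome 21, 4.30% on chromosome 13, 3.43% on chromosome 2 and 3.34% on chromosome 8. It was 0.546% on chromosome 16 (4 of 733), 0.814% on chromosome 14 and 0.856% on chromosome 19. At the scale of 1 Mb, 589 of 2690 windows with a listed region held at least 1 VCaP-only region, 489 of these held exactly 1, and 6 held 4 or more.

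**Figure D2:**
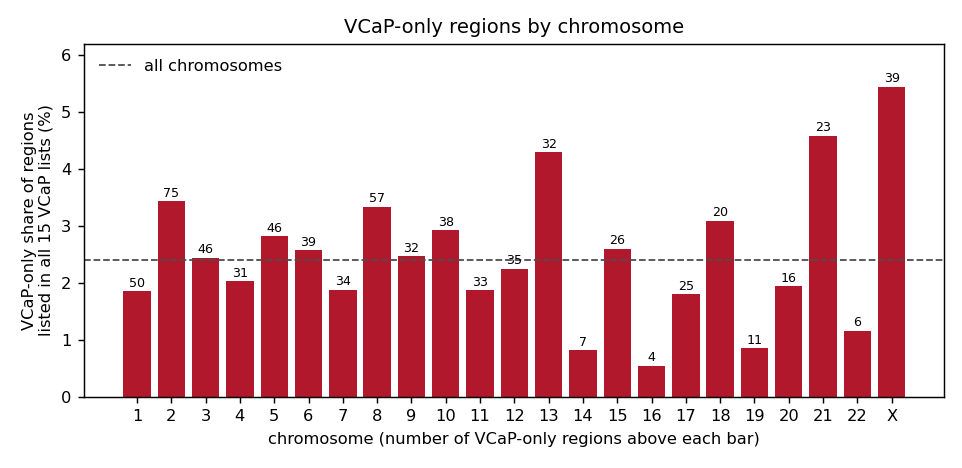
Share (%) of the regions listed in all 15 VCaP lists that were VCaP only, by chromosome, with the number of VCaP-only regions above each bar and the share over all chromosomes (2.41%) as a dashed line. Chromosome X stands highest at 5.45% and chromosome 16 lowest at 0.546%.

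The windows with 4 or more included some on chromosomes 8, 13 and 11. The window from 136000001 to 137000000 on chromosome 8, with no protein-coding gene within 100 kb of any of the regions, had 7 regions listed in all VCaP libraries and 6 of them were VCaP only, with mean percentiles from 62.9 to 97.9. Windows on the same chromosome from 129000001 and from 138000001 held 4 each, of 16 and of 19. The window from 109000001 to 110000000 on chromosome 13 held 7 of 38, around MYO16, which codes for an unconventional myosin, and IRS2, an adaptor of insulin signalling. The window from 64000001 to 65000000 on chromosome 11 held 4 of 49.

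Single genes with several VCaP-only regions were few. OPCML, a cell adhesion molecule of the IgLON family, was nearest to 5, with mean percentiles from 57.2 to 90.3. DLGAP1 (a scaffold of neuronal synapses), FAM135B and ZNF385B (a zinc finger protein) were nearest to 3 each. The ZNF385B regions at 179743917 to 179744905 and at 179745289 to 179746214 had the same percentile in several libraries. It was 71.8 for both in 0.06 nM replicate 2 and 75.6 for both in 0.06 nM replicate 4. There 1 wider peak can have given both values, so the 3 are not separate counts. All 3 DLGAP1 regions lay in 1 stretch of 135.9 kb without a LNCaP entry. One of these, at 4453932 to 4454340 on chromosome 18, was high in 12 libraries (91.1 to 97.6) and low in 3. The low values were 36.05 and 27.1 in vehicle replicates 2 and 4 and 33.0 in 0.06 nM replicate 4. That region lay at the edge of the stretch, 0.347 kb from the nearest LNCaP entry, against 9.87 and 41.9 kb for the others. Its place among the VCaP-only regions thus depends on where peak edges were set. There were 19 genes with 2 each, among them BARHL2, a homeodomain factor of the nervous system, whose regions stood at 50.4 ± 14.8 and 73.0 ± 8.43 (SD, n = 15).

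The 137 regions at gene starts covered genes of many functions. The examples that follow were chosen after their values were seen, as mean percentiles over 15 libraries. GPX3, a secreted glutathione peroxidase, stood at 93.7 ± 2.35, MST1R, a receptor tyrosine kinase of the MET family, at 90.6 ± 5.04, and the kinase gene SYK at 87.6 ± 3.96. The start region of INPP4B, a phosphoinositide phosphatase known as a tumour suppressor in prostate cancer, stood at 72.2 ± 7.87. Examples among starts of developmental transcription factors were NKX2-3 at 81.5 ± 5.09, LHX3 at 78.1 ± 8.22, the orphan nuclear receptor NR0B1 at 75.9 ± 9.48 and the intestinal factor CDX2 at 64.5 ± 7.099, with PITX3 at 60.9 ± 12.9 and SHOX2 at 45.1 ± 14.2. The start of APC, an inhibitor of WNT signalling, stood at 59.7 ± 9.08, all SD with n = 15. One start of NR3C1, which codes for the glucocorticoid receptor, was the least steady of those printed, with 48.9 ± 24.4. It stood at 86.2, 18.3 and 39.1 at 10 nM, against 58.4, 9.5 and 55.4 at vehicle, and the groups overlapped.

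A VCaP-only region in the HOXA cluster covered the miR-196b gene. It spans 27169077 to 27170110 on chromosome 7 and had a mean percentile of 51.4 ± 6.46 (SD, n = 15). miR-196b lies between HOX genes and is known to target HOX transcripts. Its mature arms are shown with the seed, bases 2 to 8, in capitals, from RefSeq.
hsa-miR-196b-5p: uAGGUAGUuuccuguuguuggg
hsa-miR-196b-3p: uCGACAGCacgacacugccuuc
The hairpin spans 27169480 to 27169563 on the minus strand of GRCh38.p14, inside the region. A second region covered the MIR6080 hairpin on chromosome 17, at 80.5 ± 6.93.

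Lists of genes by role showed where VCaP-only regions were and were not nearest. Over all 19974 protein-coding genes, 559 (2.80%) were nearest to a VCaP-only region and 13751 (68.8%) to a region also in LNCaP. Among genes of androgen signalling, the co-chaperone gene FKBP4 (88.4 ± 8.60) and NR3C1 had a VCaP-only region. Of 38 androgen-induced genes with a position, none had one, although 35 had a region also in LNCaP. Of 20 ETS factors, ETS2 (82.0 ± 6.54) and ETS1 (64.7 ± 9.30) had one. The nearest LNCaP peak lay 0.084 kb from the ETS1 region, 4.49 kb from the ETS2 region and 0.525 kb from the FKBP4 region. The place of the ETS1 region thus depends on where peak edges were set. Of 35 genes linked to ERG in prostate cancer, 2 did: ZNF385B with 3 and ARHGDIB, an inhibitor of small GTPase cycling, with 1 (56.8 ± 18.1). Of the 3 at ZNF385B, 2 lay close together and shared their value in several libraries.

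Among luminal factors, NFIB (69.8 ± 7.76) had a VCaP-only region. Of 39 HOX genes, HOXC4 (69.0 ± 17.7), HOXD8 (64.5 ± 7.87) and HOXA10 (57.1 ± 12.2) did. Of 16 neuroendocrine markers, the transcription factor gene INSM1 (73.5 ± 22.95) and the neuronal splicing factor gene SRRM4 (57.2 ± 15.2) did. Of 16 endothelial markers, ESAM, a junction protein, had a strong one (93.5 ± 2.12) and the receptor gene TEK a weaker one (60.2 ± 16.05), all SD with n = 15. None of the 43 genes in a list of WNT ligands, receptors and effectors, which does not include APC, 13 basal, 14 stromal or 14 immune markers and 18 housekeeping genes was nearest to one. The nearest LNCaP peak lay 0.512 kb from the SRRM4 region, 0.601 kb from INSM1, 0.647 kb from HOXD8 and 0.685 kb from NFIB. For the HOXC4, HOXA10, ESAM and TEK regions it lay 1.26 to 10.3 kb away. With 0 to 6 regions a list, these are counts and not tests.

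At 10 nM R1881 the VCaP-only regions ranked lower than at vehicle. Their median percentile in a library was 63.9 to 67.7 at 10 nM, against 69.6 to 75.05 at vehicle, and the 2 sets of libraries did not overlap. Between them in dose, it was 69.3 to 72.8 at 0.01 nM, 66.2 to 72.9 at 0.03 nM and 69.4 to 71.9 at 0.06 nM. For regions also in LNCaP it was 80.3 to 82.2 at 10 nM, against 81.8 to 83.9 at vehicle, which overlap. Fold enrichment differed by replicate number, with library medians over the 725 regions of 7.24 to 8.99 for number 1, 4.05 to 5.38 for number 2 and 5.57 to 6.77 for number 4. Within each number the median percentile of the 10 nM library was below that of the vehicle one, with 67.7 against 75.05 for number 1, 65.7 against 70.6 for number 2 and 63.9 against 69.6 for number 4. The regions also in LNCaP had the same direction within each number, with 82.2 against 83.9 for number 1, 80.3 against 81.8 for number 2 and 82.2 against 82.7 for number 4. In bulk libraries, fewer cells with an open region and less opening per cell cannot be told apart. The rule required a peak at every dose, so a region that closed fully at any dose could not be among the 725. The starting spans came from a vehicle library, and a LNCaP peak at any dose, 10 nM included, removed a region. How far these conditions shaped the lower rank at 10 nM, and the counts of rises and falls below, was not tested.

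**Figure D3:**
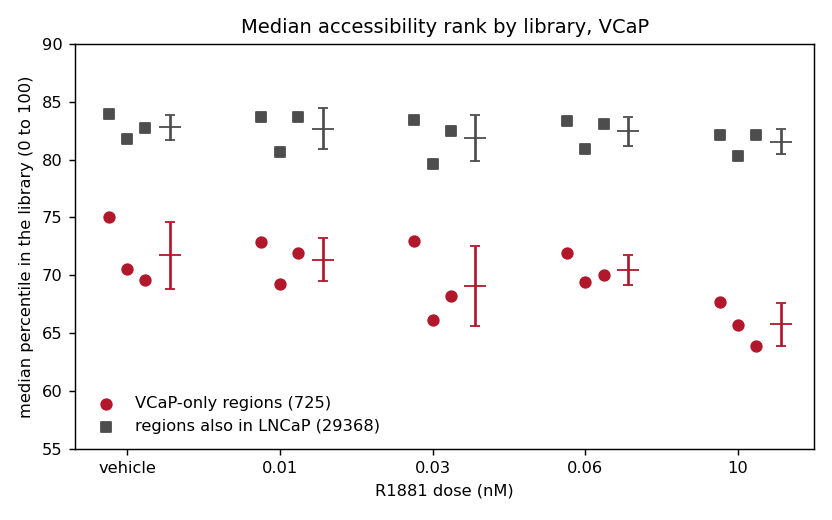
Median percentile (0 to 100) of 725 VCaP-only regions (circles) and 29368 regions also in LNCaP (squares) in each VCaP library by R1881 dose in nM, with mean ± SD of 3 libraries beside the points; the axis starts at 55. The VCaP-only medians at 10 nM (63.9 to 67.7) lie below all vehicle medians (69.6 to 75.05).

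Single regions were tested with limma over all 70914 spans with a value in at least 3 VCaP libraries, and all 725 were among them. Each of the 3 comparisons shares libraries with the others. At 10 nM against vehicle, 16 of the 725 regions rose and 55 fell at a Benjamini-Hochberg adjusted p under 0.05. Over all regions tested, 2.93% rose and 4.49% fell, and over regions also in LNCaP 3.14% rose and 4.17% fell, beside 2.21% and 7.59% of the VCaP-only regions. The median difference was −4.29 percentile points in VCaP-only regions, −0.79 in regions also in LNCaP and −3.07 in all. Among regions of mean percentile 80 and above, 10.97% of 155 VCaP-only regions fell and 5.81% rose, beside 3.05% and 3.14% of 14959 others. Between 60 and 80, 8.41% of 345 fell and 1.74% rose, beside 5.68% and 3.85% of 10585. Below 60, 9 of 225 fell and 1 rose, beside 168 and 46 of 3824. Without vehicle replicates 1 and 2, which had the lowest background pileup, 15 rose and 6 fell, with the remaining vehicle library assumed to vary like the other groups. Without 10 nM replicate 1 the counts were 8 and 36, and without 10 nM replicate 4 they were 9 and 36. The split also moved with the scale: it was 26 and 38 on percentiles of the full lists and 23 and 43 on log2 fold enrichment.

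The comparison of 10 nM with the 3 low-dose groups does not use the vehicle mean. The vehicle libraries still entered the shared estimate of spread, and vehicle replicate 4 supplied the starting spans. In this comparison 31 VCaP-only regions fell (4.28%) and none rose, by limma. Over all regions tested, 1.28% fell and 0.385% rose, and over regions also in LNCaP 1.96% fell and 0.16% rose. The median difference was −3.51 percentile points in VCaP-only regions, −0.51 in regions also in LNCaP and −1.45 in all. Of the 31 regions, 29 also fell against vehicle, with the 10 nM libraries shared by both comparisons. On log2 fold enrichment 18 fell and 4 rose, and on the 50000 strongest entries 31 fell and 6 rose.

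At the low doses against vehicle, 8 VCaP-only regions rose and 1 fell. Over all regions tested, 0.849% rose and 0.532% fell, and over regions also in LNCaP 1.23% rose and 0.00341% fell. Of the 8, 7 also rose at 10 nM against vehicle. In all, 74 of the 725 regions passed in at least 1 comparison and 651 in none. Of regions with a start distance, 3 of the 137 at gene starts were called at 10 nM against vehicle, all lower. Of the 531 elsewhere, 11 rose and 44 fell. For the counts over comparisons and by gene start, shares over all regions tested were not worked out. These counts are therefore not read as a trait of VCaP-only regions.

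In 4 of the 6 largest rises at 10 nM against vehicle the group means climbed at every step of dose. A region 8.46 kb from CALCOCO1, which codes for a coactivator and autophagy receptor, stood at 3.5, 36.5 and 65.4 in vehicle, averaged 68.8, 82.7 and 91.0 at 0.01, 0.03 and 0.06 nM, and stood at 92.8, 91.4 and 91.9 at 10 nM. The vehicle libraries were far apart, and all 3 stood below every library at 0.03 nM and above. The difference was 56.9 ± 9.80 (SE) at 10 nM against vehicle (adjusted p = 0.0017, limma) and 45.7 at the low doses against vehicle (adjusted p = 0.005). Without vehicle replicates 1 and 2 the difference at 10 nM was 26.6 (adjusted p = 0.0268), and at the low doses it was 15.4 and the call was lost (adjusted p = 0.29, limma). Without vehicle replicate 1 alone the low-dose difference was 29.8.

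Of the 6 largest rises, 4 lay on chromosome 8, which held 57 of the 725 VCaP-only regions. The limit of 1 per gene did not thin regions without a gene. The share of chromosome 8 among all called regions was not worked out, so this count is not read as clustering on chromosome 8. The region at 136103257 to 136103482 averaged 48.5, 69.7, 74.8, 91.7 and 95.0 from vehicle to 10 nM, and rose by 46.5 ± 6.39 at 10 nM (adjusted p = 2.56e-04). The region at 136259301 to 136260327 in the same gene-free window stood at 89.4, 91.3 and 88.8 at 10 nM, against 46.3, 33.8 and 27.9 at vehicle (53.8 ± 9.57, adjusted p = 0.0022, SE). The other 4 VCaP-only regions of this window did not pass the test. Inside COL22A1, a collagen gene, a region at 138624678 to 138624979 averaged 59.0, 73.0, 87.2, 93.8 and 98.1 from vehicle to 10 nM. Its fold enrichment averaged 14.9 at 10 nM and 5.52 at vehicle, and its percentile rose by 39.1 ± 4.94 (adjusted p = 1.19e-04). The region at 129185513 rose by 43.8 ± 12.6 (adjusted p = 0.0389), and one on chromosome 10 at 85438711 by 44.6 ± 12.9 (adjusted p = 0.0406). A region in HNF4G, a nuclear receptor gene of gut epithelium, named after its values were seen, rose by 37.4 ± 8.61 (adjusted p = 0.0125). Adjusted p was 0.0687 to 0.158 at 129185513 without any 1 of the 10 nM libraries or vehicle replicate 4, and 0.0539 to 0.142 at 85438711 without any 1 of the 10 nM libraries or vehicle replicate 1 or 2. In HNF4G it was 0.0542 without 10 nM replicate 2 (limma). Without vehicle replicate 4 the difference was 28.2 at 129185513 and 23.6 in HNF4G. Without vehicle replicates 1 and 2 it was 75.2 and 64.999 at those regions, and the call at 85438711 was lost (adjusted p = 0.327, limma).

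Of the 8 called rises at low doses against vehicle, only 3 were without overlap between libraries, and these were small to moderate. Larger called rises, with overlap, were those near CALCOCO1 (45.7), at 136103257 (30.2) and in COL22A1 (25.7). A region 86.3 kb from CACNA2D1, a calcium channel subunit gene, averaged 70.1, 82.0, 92.0, 94.5 and 92.8 from vehicle to 10 nM (low doses against vehicle 19.4 ± 2.59, adjusted p = 4.89e-04). A region on chromosome 6 at 100228715 averaged 85.9, 90.3, 93.3, 95.6 and 94.3 (7.16 ± 1.40, adjusted p = 0.0116). A region inside TSPAN14, a tetraspanin gene, averaged 64.6, 85.0, 87.6, 93.9 and 85.4 (24.3 ± 4.12, adjusted p = 0.0039, all SE). For each of the 3 without overlap, all 9 low-dose libraries stood above all 3 vehicle libraries, which is how they were picked. The call at 100228715 was lost without vehicle replicates 1 and 2 (adjusted p = 0.176, limma).

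In each of the 6 largest falls the lowest group mean was that at 10 nM. A region 16.2 kb from the collagen gene COL6A5, at 130328574 to 130329475 on chromosome 3, averaged 87.1, 87.9, 75.2, 67.9 and 25.1 from vehicle to 10 nM. Its 10 nM libraries stood at 25.6, 23.6 and 26.1, against 61.7 to 89.3 in the low-dose libraries and 91.7, 86.3 and 83.3 at vehicle. It fell by 62.0 ± 7.30 against vehicle (adjusted p = 5.97e-05) and by 51.9 ± 5.96 against the low doses (adjusted p = 6.83e-05, limma, SE). Fold enrichment averaged 4.07 at 10 nM and 10.9 at vehicle.

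A region 98.8 kb from LOC124905050 on chromosome 21 stood at 45.1, 53.8 and 3.4 at 10 nM, against 93.4, 96.1 and 84.9 at vehicle. It fell by 57.4 ± 9.14 against vehicle (adjusted p = 9.49e-04) and by 47.5 ± 7.46 against the low doses (adjusted p = 0.0015). On chromosome 2 a gene-free region at 217481479 stood at 21.3, 53.8 and 30.2 at 10 nM, against 73.4 to 86.2 in the 9 low-dose libraries, and fell by 43.7 ± 6.22 (adjusted p = 6.14e-04). A region 35.8 kb from ALB, the albumin gene, stood at 21.3, 18.8 and 16.3 at 10 nM, against 69.5, 70.6 and 75.7 at vehicle (fell by 53.1 ± 14.98, adjusted p = 0.0357, SE). The other named falls, on chromosomes 8, 6 and 13, were of 54.5 to 55.2 points. The ALB call was lost without any 1 of its 6 libraries (adjusted p = 0.0639 to 0.0969). The call on chromosome 6, at 85063110, was lost without 10 nM replicate 1 or 4 or vehicle replicate 1 (0.0675 to 0.0794). Without vehicle replicates 1 and 2, the calls against vehicle were lost at LOC124905050 (adjusted p = 0.0877), at 217481479 (0.066), at 59264227 on chromosome 8 (0.127), at 85063110 (0.319) and at ALB (0.236, limma).

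**Figure D4:**
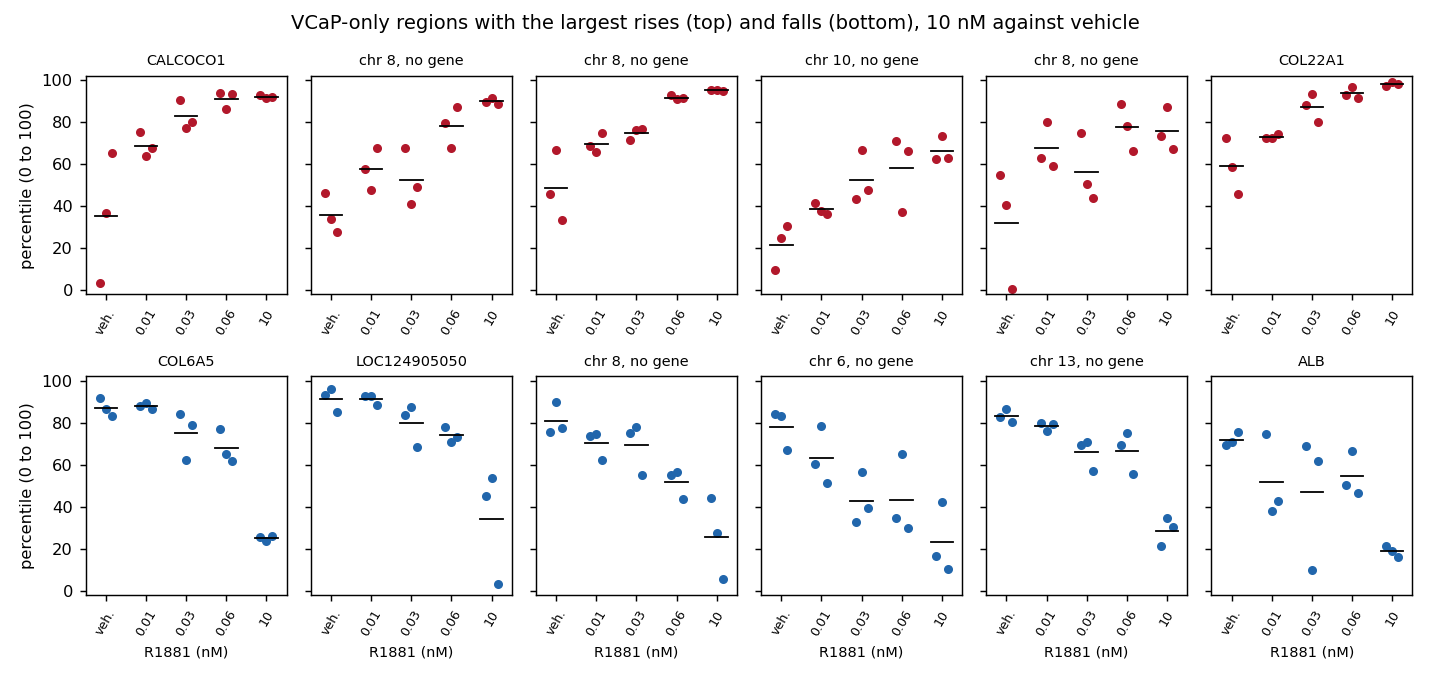
Percentile (0 to 100) in each VCaP library by R1881 dose in nM (veh., vehicle) for the 6 largest rises (top row) and 6 largest falls (bottom row) at 10 nM against vehicle, with 3 libraries a dose as points and their mean as a line. COL22A1 averages 98.1 at 10 nM and 59.0 at vehicle, and COL6A5 averages 25.1 at 10 nM and 87.1 at vehicle.

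Among the genes with most regions, OPCML and FAM135B had 1 called region each. In OPCML the strongest region, at 132595428 to 132596151, stood at 83.7, 76.4 and 83.0 at 10 nM, against 90.5, 96.5 and 92.2 at vehicle (fell by 12.1 ± 2.30, adjusted p = 0.0036), and the 4 others were not called. In FAM135B the region at 138378301 averaged 63.4 at 10 nM and 90.3 at vehicle, and fell by 26.9 ± 4.19 (adjusted p = 7.80e-04, SE), and the 2 others were not called. Of the gene lists, 1 region was called: the one 39.9 kb from FKBP4, which codes for a co-chaperone of steroid receptors. It stood at 84.3, 66.7 and 71.1 at 10 nM, against 94.5, 94.0 and 93.4 at vehicle, and fell by 19.96 ± 3.38 against vehicle (adjusted p = 0.0015) and by 17.4 ± 2.76 against the low doses (adjusted p = 0.0017, SE). Without vehicle replicates 1 and 2, adjusted p against vehicle was 0.0721 at FKBP4 and 0.0824 at OPCML (limma).

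The 3 start regions that fell at 10 nM moved by little or moderate amounts. INPP1, which codes for an inositol phosphatase, averaged 80.7 ± 1.08 at 10 nM and 89.5 ± 2.70 at vehicle (SD, n = 3 each; adjusted p = 0.0389, limma). RTL8B, a gene derived from a retrotransposon, averaged 81.2 ± 2.91 at 10 nM and 91.0 ± 2.24 at vehicle (SD, n = 3 each; adjusted p = 0.0324, limma). The start shared by CCDC169 and CCDC169-SOHLH2 averaged 68.4 ± 2.19 at 10 nM and 86.9 ± 2.54 at vehicle (SD, n = 3 each; adjusted p = 0.0329, limma). The groups of libraries did not overlap at any of the 3. Each call was lost when 1 library was left out: adjusted p was 0.0741 to 0.126 at INPP1 and 0.069 to 0.103 at CCDC169-SOHLH2 without any 1 of the 10 nM libraries or vehicle replicate 1 or 2, and 0.058 to 0.116 at RTL8B without 10 nM replicate 1 or 4 or vehicle replicate 1 or 2 (limma). Adjusted p was 0.444 at INPP1, 0.327 at CCDC169-SOHLH2 and 0.361 at RTL8B without both vehicle replicates 1 and 2 (limma), and there the INPP1 difference was −5.85, against −8.79 with all libraries.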

How the data were processed

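Per the submitters' processing notes, the authors used the build GRCh38 (hg38) with MACS2 2.2.7.1, BWA 0.7.17, Trimmomatic 0.39 and deepTools 3.5.1. The deposited narrowPeak lists, 1 per library, give for each peak a score, the ratio of summit signal to local background (fold enrichment), a −log10 p, a −log10 q and a summit offset, as the authors deposited them. They hold no counts, so depth is unknown, no counting interval can be given, and relative depth was solved from fold enrichment and p under a Poisson model. The solved pileups were within 0.05 of a whole number for 100% of entries.

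A region's value is the percentile by −log10 p of the best overlapping entry (at least 1 bp) among a library's 100000 strongest, and 0 without one. limma 3.58.1 in R 4.3.3 (trend and robust variance) fitted the 5 VCaP group means over 70914 spans. All tests were two-sided, with Benjamini-Hochberg adjustment over all spans. The fit was tested on simulated data.

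Genes (protein-coding bodies within 100 kb), gene starts, promoters and miRNAs come from RefSeq on GRCh38.p14. Gene starts of chromosome 8 were not used here, and some loci are not reported here. No genome was used, so sequence outside promoters is not analysed here. The members, the 13 gene lists and the 12 motifs were chosen with earlier results of these data known. Regions were named by rule: the 12 highest mean percentiles, the largest called rises and falls without overlap (6 each way at 10 nM against vehicle, 3 in the other comparisons, 1 per gene), the 6 genes with most regions and up to 3 genes a list. Summit percentiles are tied where entries share a p. Alternatives covered ranking, scale, overlap, filter, list length, samples and replicates left out, and the replicate block.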

Additional observations from a re-analysis of the deposited data

How the results depend on the processing

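The number of VCaP-only regions follows the lists' lengths: 725 became 279 with the 50000 strongest VCaP entries, 1789 with LNCaP lists shortened to 100000 entries and 432 where 50% of the span had to be covered. It was 967 with all VCaP entries, 615 with no LNCaP entry within 500 bp, and 703 and 794 with vehicle replicates 1 and 2 as the starting list. For 10 nM against vehicle, the 71 calls became 34 with only the groups compared, 21 without vehicle replicates 1 and 2 (an alternative chosen after seeing the data), and 44 to 69 with 1 library left out. For the low doses against vehicle, the 9 calls became 20 on percentiles of the full lists. Replicate numbers are shared between groups, and same-numbered 10 nM and vehicle libraries deviated together with r of 0.052, 0.15 and 0.183. The main fit has no term for the number, so any effect shared by number stays in its spread. Over all groups, r ran from 0.052 to 0.294 (median 0.157) for libraries of the same number. For others it ran from −0.274 to 0.08 (median −0.106). With a replicate block the calls were 100 (28 rose, 72 fell) at 10 nM against vehicle, 16 at the low doses against vehicle and 49 at 10 nM against the low doses, against 31 without it. No named difference reversed under any alternative run, and without vehicle replicates 1 and 2 14 of the 29 named calls against vehicle were lost. The cause of these changes was not tested, apart from the fewer samples in the smaller fits.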
